A study of Mus musculus with 20 samples.

Results

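Sample names divided the 20 breast tumors of the series into 9 that carry Lo and 11 that carry Hi. The names were the only basis for the groups, so all 20 tumors of the series entered the comparison, across 43346 counted genes. What Lo and Hi stand for is given neither in the sample descriptions nor in the paper. The values below therefore describe how tumors with these names differed and say nothing about a treatment. Each tumor was a frozen piece from its own female [BALB/c-neuT x FVB/J] F1 mouse, from a transgenic BALB/c-neuT father and an FVB/J mother. The tumors arose without treatment, in general by 20 weeks of age, and every mouse had several of them. All mice of both groups carried neuT, an activated rat Her2/neu gene expressed from a mammary tumor virus promoter, so no group lacks the oncogene and there was no normal tissue. Tumors are named here by their label and the closing number of the sample name (Lo 1 to Lo 11, with 5 and 10 absent, and Hi 1 to Hi 11).

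The neu receptor is a tyrosine kinase of the ErbB family that drives growth of luminal mammary epithelium. A piece of such a tumor holds epithelial cancer cells together with fibroblasts, vessels, leukocytes and sometimes adjacent muscle or skin. Epithelial cells and leukocytes alike respond to interferons, secreted proteins that switch on antiviral genes and antigen presentation. Gains and losses of whole chromosomes are common in mouse tumors and shift the expression of many genes on a chromosome by a small amount.

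Counts were compared per gene as CPM (counts relative to the scaled library total) in a quasi-likelihood test in edgeR. Fold changes are log2 and coded Hi minus Lo, so that a negative value means a higher level in Lo. Of 18973 genes tested, 0 (0.0%) passed an adjusted p of 0.05, and the smallest adjusted p was 0.166. It belonged to Mospd4, a gene below 1 CPM that was picked out here for its p, at 0.241 to 0.506 CPM in Lo and 0.0899 to 0.277 CPM in Hi (log2 fold change -1.30). At an unadjusted p under 0.05 there were 1042 genes (5.49%), of which 425 (2.24%) had a higher level in Hi and 617 (3.25%) a higher level in Lo. With limma, run as voom with quality weights that ranged over the tumors from 0.611 (Lo 8) to 1.62 (Hi 9), 319 genes were higher in Hi and 446 higher in Lo at an unadjusted p under 0.05, and with DESeq2 474 and 603. Past an adjusted p of 0.05 limma gave 0 genes and DESeq2 1, Serpina3g. In none of the 18973 genes did the groups separate without overlap (0.0% in each direction). A higher level in Lo, at any p, was seen in 48.9% of genes. The median log2 fold change was 0.0028, and the middle of the distribution was narrow, with a 10th percentile of -0.19 and a 90th percentile of 0.18.

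The size of difference that remains possible was small for well expressed genes. Where the mean log2 CPM was 1 or more, in 14331 genes, the 95% interval of the log2 fold change reached a median of 0.191 to either side. For 13984 of these genes (97.6%) the whole interval lay between -1 and 1. Tumors with the same label were no more alike than tumors with different labels, since the median Pearson's r of log2 CPM across genes was 0.9783 for pairs of Lo tumors, 0.9786 for pairs of Hi tumors and 0.9785 for mixed pairs, a description over 36, 55 and 99 pairs that share tumors.

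**Figure D1:**
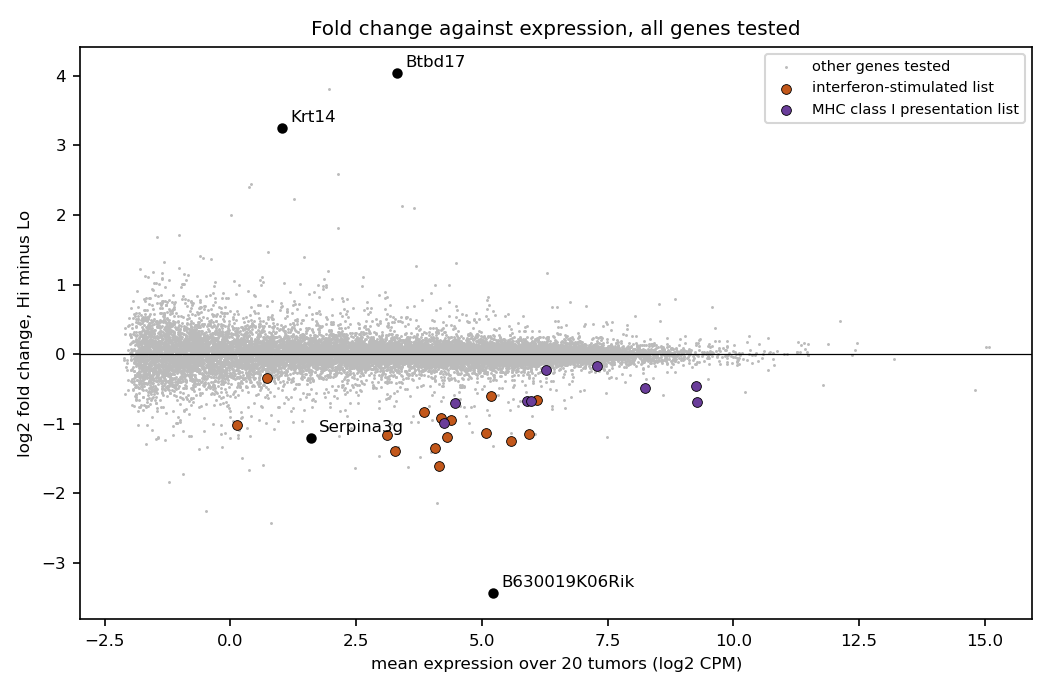
Log2 fold change (Hi minus Lo, vertical axis) against mean log2 CPM over 20 tumors (horizontal axis) for the 18973 genes tested, each point a gene. Most points lie close to 0, the 15 interferon-stimulated genes (orange) and the 9 genes of MHC class I presentation (violet) all lie below 0, and the genes named in black reach the extremes through 1 or a few tumors, apart from Serpina3g.

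The labelled tissue was borne out by its defining genes. Epcam, an adhesion molecule of epithelium, had 1269.5 ± 128.8 CPM in Lo (SD, n = 9) and 1268.8 ± 144.0 CPM in Hi (SD, n = 11). The luminal keratin Krt8 had 995.5 ± 155.7 and 899.6 ± 167.9 CPM. Of the 16 genes of luminal epithelium and hormone receptors 0 had an unadjusted p under 0.05, and their median log2 fold change was -0.03. Pgr, the progesterone receptor and a target of estrogen, was low in both groups, at 1.502 ± 2.04 CPM in Lo and 0.805 ± 0.829 CPM in Hi.

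Of the gene lists, the interferon-stimulated list had the median furthest toward Lo. All 15 members had a higher mean level in Lo, 14 of them at an unadjusted p under 0.05 (3.25% of all genes did so), with a median log2 fold change of -1.14 beside 0.0028 over all genes. None passed the adjusted threshold, and the smallest adjusted p of the list was 0.586. In limma with quality weights the median was -0.67 and 6 of 15 genes had an unadjusted p under 0.05. The weights were 0.611 for Lo 8, 0.744 for Lo 4, 0.867 for Lo 1 and 0.993 for Lo 2. Some tumors of the Lo group carried the levels. The summed CPM of the 15 genes was 1066 in Lo 2, 1031 in Lo 1, 736 in Lo 4 and 530 in Lo 8, above the highest Hi tumor (Hi 2, 446). The other 5 Lo tumors had between 173 and 325 and lay within the Hi range, which ran from 118 in Hi 1 to 446 with a median of 230. Lo 1 and Lo 2 were each among the 3 highest of the 20 tumors for 14 of the 15 genes, and Lo 4 for 13.

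Usp18, Rsad2 and Ifit3 had the fold changes furthest from 0 among the 15. Usp18, a protease that removes ISG15 from proteins and dampens interferon signaling, ranged from 5.34 to 77.8 CPM in Lo with a median of 17.2, and from 3.46 to 21.5 CPM in Hi with a median of 7.87. The groups overlapped, and 4 Lo tumors lay above every Hi tumor (log2 fold change -1.60, 95% interval -2.46 to -0.75, edgeR adjusted p = 0.586). Rsad2, which makes a nucleotide that halts viral polymerases, ranged from 2.97 to 28.0 CPM in Lo (median 11.2) and from 2.77 to 14.7 CPM in Hi, with a log2 fold change of -1.40. Ifit3, an RNA-binding antiviral protein, ranged from 5.21 to 61.0 CPM in Lo (median 13.9) and from 3.65 to 20.2 CPM in Hi, with a log2 fold change of -1.34. In each of these, Lo 1, Lo 2, Lo 4 and Lo 8 were the 4 tumors above the Hi range.

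A regulator on the list showed a similar order of tumors. Irf7, a transcription factor that amplifies the interferon response, ranged from 21.9 to 203.0 CPM in Lo (median 57.3) and from 16.3 to 70.3 CPM in Hi (log2 fold change -1.15, 95% interval -1.86 to -0.45, edgeR adjusted p = 0.684). The chemokines that attract T cells were low, with Cxcl10 at 1.46 ± 0.813 CPM in Lo and 0.716 ± 0.274 CPM in Hi. Cxcl9 was the 1 member with an unadjusted p above 0.05, at 1.83 ± 0.932 and 1.44 ± 0.679 CPM (edgeR unadjusted p = 0.281).

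Many interferon-stimulated promoters hold the interferon-stimulated response element, a short DNA motif. RefSeq promoters (GRCm38.p6, the mm10 assembly) were found for 12 of the 15 genes, and in the 250 bases before the start the letters GAAA, any 2 bases and GAAA again (TTTC, any 2 bases and TTTC where the match is on the opposite strand) occurred in 7 of the 12 (58.3%), against 936 of 27025 genes (3.46%). For the MHC class I list below it was 1 of 7 genes with a promoter (14.3%). Windows of 60 bases are shown for 6 of the 7, since these are the matches behind that share. The window of Gbp2 overlaps the gene as the count table places it and is not printed. They read 5′ to 3′ on the strand of the gene, capitals mark the matched letters, and matches that overlap run together.
Rsad2, chr12:26456539-26456598, minus strand: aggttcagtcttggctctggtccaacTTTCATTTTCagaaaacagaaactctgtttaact
Cxcl10, chr5:92349069-92349128, minus strand: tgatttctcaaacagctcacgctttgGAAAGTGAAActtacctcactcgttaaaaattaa
Ifit3, chr19:34583364-34583423, plus strand: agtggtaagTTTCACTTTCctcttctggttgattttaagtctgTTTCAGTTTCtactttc
Ifit1, chr19:34640769-34640828, plus strand: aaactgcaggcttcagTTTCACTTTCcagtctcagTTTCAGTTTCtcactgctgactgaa
Oas1a, chr5:120907526-120907585, minus strand: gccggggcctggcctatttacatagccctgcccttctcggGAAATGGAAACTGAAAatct
Isg15, chr4:156200857-156200916, minus strand: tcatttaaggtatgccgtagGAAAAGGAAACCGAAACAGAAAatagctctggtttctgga
Isg15 holds 3 overlapping matches, Oas1a 2 overlapping matches, and Ifit1 and Ifit3 hold 2 matches each. A match is a description of the letters and not of binding in these tumors.

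**Figure D2:**
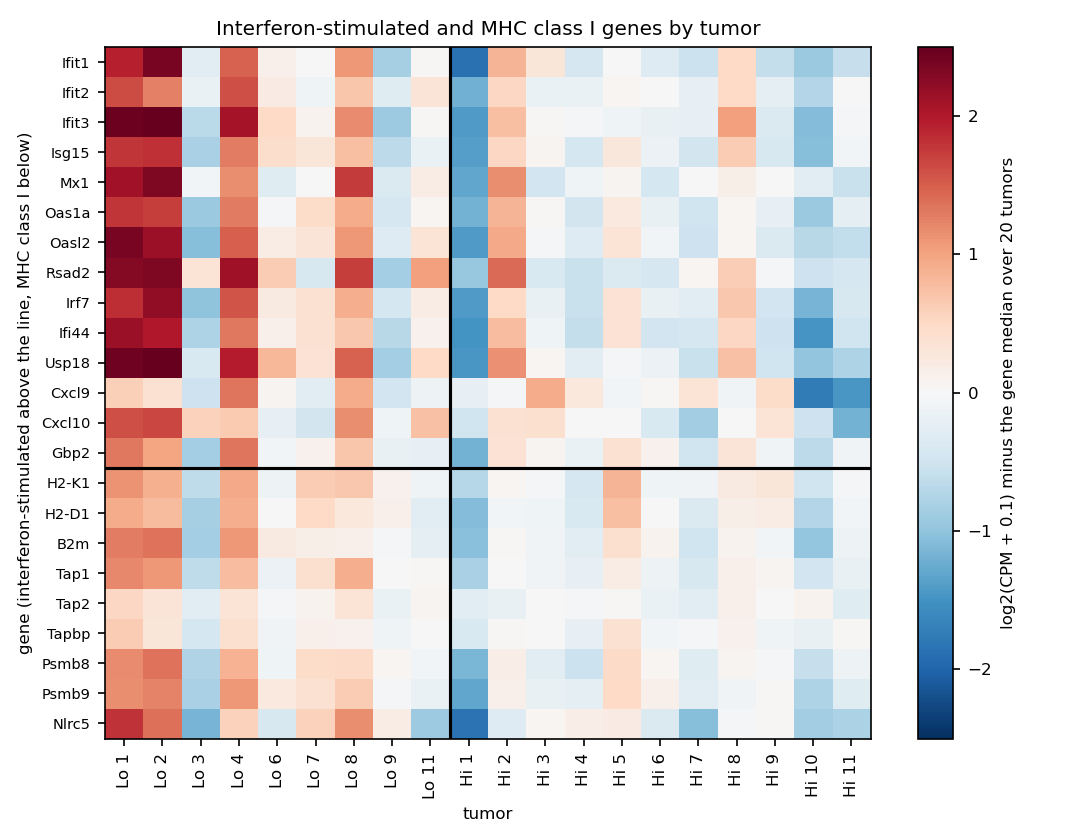
Level of 14 of the 15 interferon-stimulated genes (above the horizontal line) and 9 MHC class I presentation genes (below it) in each tumor, as log2(CPM + 0.1) minus the gene's median over 20 tumors. Red is above and blue below the median. Lo 1, Lo 2 and Lo 4 are red in nearly every row and Lo 8 in most, while Lo 3, Lo 9, Hi 1 and Hi 10 are mostly blue.

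The genes that load peptides onto MHC class I molecules, through which cells show their contents to cytotoxic T cells, leaned the same way. All 9 members had a higher mean in Lo, 8 of them at an unadjusted p under 0.05 (3.25% of all genes), with a median log2 fold change of -0.67 and a smallest adjusted p of 0.675. In limma with quality weights 4 of 9 had an unadjusted p under 0.05 and the median was -0.48. Their summed CPM was 3633 in Lo 1, 3456 in Lo 2 and 3238 in Lo 4, above the highest Hi tumor (Hi 5, 2569), and the other 6 Lo tumors, from 1034 to 2219, lay within the Hi range of 925 to 2569. B2m, the invariant light chain, which lies on Chr2, ranged from 300.6 to 1404 CPM in Lo with a median of 602.0, and from 263.4 to 718.5 CPM in Hi with a median of 510.3. The groups overlapped, with 3 Lo tumors above the Hi range (log2 fold change -0.68, 95% interval -1.18 to -0.18, edgeR adjusted p = 0.716), and with the Chr2 dosage described below as a covariate the log2 fold change was -0.42. Tap1, which pumps peptides into the endoplasmic reticulum, ranged from 33.6 to 120.2 CPM in Lo (median 69.4) and from 29.6 to 59.2 CPM in Hi, with 5 Lo tumors above the Hi range (log2 fold change -0.67). Nlrc5, the transactivator of MHC class I genes, had 26.2 ± 17.1 CPM in Lo and 13.2 ± 4.86 CPM in Hi (log2 fold change -0.99). Tapbp, which tethers MHC class I molecules to the peptide pump, had 166.9 ± 36.5 and 148.5 ± 20.6 CPM and an edgeR unadjusted p of 0.130.

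Leukocyte genes had medians that lay close together in the groups. In bulk tissue fewer cells of a type and less RNA per cell cannot be told apart. The summed CPM of the 6 leukocyte genes was between 345 and 812 in Lo and between 420 and 595 in Hi, with a median log2 fold change of 0.0076 and 0 of 6 genes at an unadjusted p under 0.05. Of the 4 tumors with the highest interferon-stimulated sums, Lo 2 had 615, above every Hi tumor, Lo 4 had 517, Lo 1 had 496 and Lo 8 had 345, the lowest of all tumors. The sum was dominated by Lcp1, at 517.9 CPM in Lo 2 and 250.3 CPM in Lo 8. Laptm5, the next highest member, was at 36.4 CPM in Lo 2 and 34.7 CPM in Lo 8, with a Hi median of 46.0 CPM. MHC class II, which marks antigen-presenting cells, had sums of 263 to 721 in Lo and 397 to 844 in Hi (median log2 fold change 0.04, 0 of 7 genes). A covariate of leukocyte level, the mean log2 CPM of the 6 genes, was added without being planned beforehand. With it the median of the interferon-stimulated list was -1.13 and 14 of 15 genes had an unadjusted p under 0.05. The part of leukocytes in the interferon-stimulated levels was not tested. Most T cell genes were below 1 CPM, apart from Foxp3, Lck and Cd4. Among the low ones was Cd3e, a chain of the T cell receptor complex, at 0.229 ± 0.121 CPM in Lo and 0.415 ± 0.204 CPM in Hi (edgeR unadjusted p = 0.0291). Of the 10 T cell genes tested, 9 had a higher mean in Hi (48.9% of all genes lay higher in Lo). Only Cd3e, with 3 to 38 counts per tumor, passed the unadjusted threshold (2.24% of all genes, higher in Hi). The median log2 fold change of the list was 0.46. With a filter that removed the members averaging under 1 CPM it was 0.13.

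For each tumor, chromosome dosage was the median log2 CPM of its genes relative to all autosomal genes, each gene centered on its median over the 20 tumors. For Chr2, over 1006 genes, the dosage was 0.23 in Lo 2, 0.20 in Lo 8, 0.17 in Lo 11 and 0.12 in Lo 1. The other 5 Lo tumors lay between -0.04 and 0.01, and the 11 Hi tumors between -0.05 and 0.04 with a median of -0.03. So 4 Lo tumors stood above every Hi tumor and the other 5 did not. The difference of the means was -0.09 (two-sided exact permutation test, p = 0.0257, adjusted p = 0.257 over 20 chromosomes). Chr18 had the opposite sign, with a dosage of -0.02 ± 0.040 in Lo and 0.02 ± 0.023 in Hi (exact permutation p = 0.0146, adjusted p = 0.257). No chromosome passed the adjusted threshold. Chr4, whose dosage varied most, from -0.20 to 0.16 in Lo and from -0.13 to 0.37 in Hi, differed by 0.05 (exact permutation p = 0.409).

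Chr2 held 185 of the 617 genes with a higher level in Lo at an unadjusted p under 0.05. Of 1561 tested genes of Chr2, these were 11.9%, where the same share was 3.25% over all genes and from 0.847% (Chr15) to 5.1% (Chr17) on the other chromosomes. In the opposite direction there were 16 Chr2 genes (1.02%). The median log2 fold change was -0.10 on Chr2 and between -0.01 and 0.05 on the other chromosomes. These genes share the dosage of 4 tumors and are not independent. With the Chr2 dosage as a covariate, added after the data were seen, 463 genes had an unadjusted p under 0.05 in place of 1042, and 259 of the 1042 kept an unadjusted p under 0.05 in the same direction.

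None of the 15 interferon-stimulated genes lies on Chr2, but tumors with a high Chr2 dosage were in part the tumors in which these genes were high. Of the 4 tumors above the Hi range in the interferon-stimulated sum, Lo 1, Lo 2 and Lo 8 also had a high Chr2 dosage and Lo 4 (0.01) did not. Lo 11, with a Chr2 dosage of 0.17, had a sum of 299, within the Hi range. With the Chr2 dosage as a covariate the median of the list was -0.42 and 0 of 15 genes had an unadjusted p under 0.05, and for the MHC class I list the median was -0.38 and 0 of 9 did. The covariate and the label overlap, since the SD of the dosage was 0.11 in Lo and 0.025 in Hi, and the part of Chr2 dosage in the interferon-stimulated levels was not tested.

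**Figure D3:**
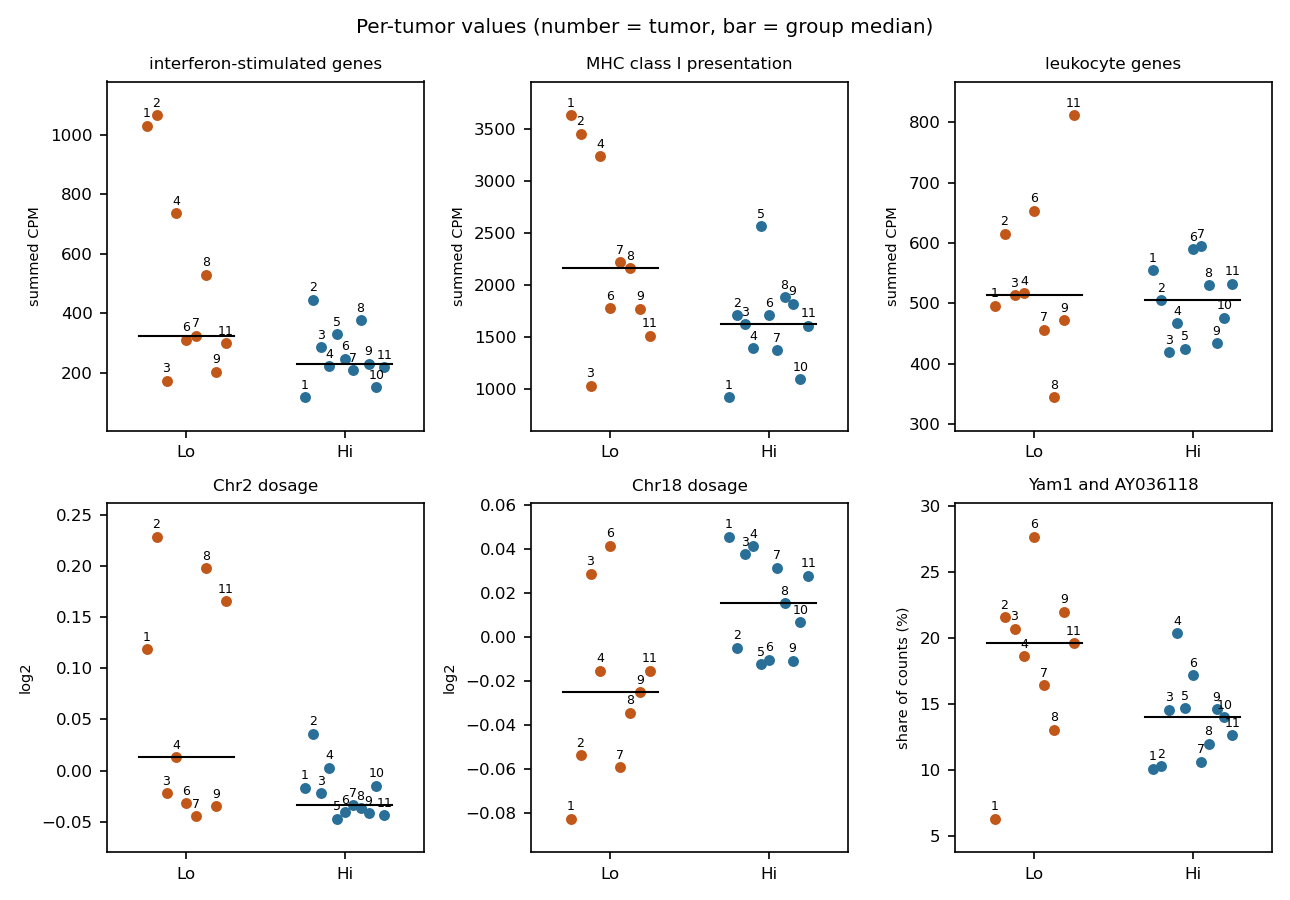
Per-tumor values in the 9 Lo and 11 Hi tumors, each point a tumor with its number and each bar a group median. The upper panels give summed CPM of the interferon-stimulated, MHC class I and leukocyte lists, and the lower panels the Chr2 and Chr18 dosage (log2) and the percentage of counts that Yam1 and AY036118 took. Lo 1, Lo 2, Lo 4 and Lo 8 stand above all Hi tumors in the first panel, and Lo 1, Lo 2, Lo 8 and Lo 11 in the Chr2 panel.

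Cell cycle genes leaned toward Lo by a small amount. Of 20 members 17 had a higher mean in Lo, with a median log2 fold change of -0.18, and 4 had an unadjusted p under 0.05, where 48.9% of all genes lay higher in Lo and 3.25% passed. With the Chr2 dosage as a covariate all 4 had an unadjusted p above 0.05. Of these 4, the mitotic kinases Aurka and Bub1 lie on Chr2. Aurka ranged from 24.97 to 37.2 CPM in Lo with a median of 26.9, and from 16.99 to 30.9 CPM in Hi with a median of 22.8 (log2 fold change -0.36, standard error 0.113, edgeR adjusted p = 0.684). With the Chr2 dosage as a covariate the log2 fold change was -0.19 for Aurka and -0.23 for Bub1 (-0.39 without the covariate). The other genes were Ccnb1, the cyclin of mitotic entry (log2 fold change -0.31, Chr13), and Plk1, a kinase of mitosis (-0.26, Chr7). Both changed little with the covariate, to -0.28 for Ccnb1 and -0.21 for Plk1. Mki67, the proliferation antigen, had 337.4 ± 47.7 CPM in Lo and 299.2 ± 62.7 CPM in Hi (edgeR unadjusted p = 0.165).

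Replication-dependent histone genes, whose transcripts mostly lack a poly(A) tail and are caught poorly by mRNA libraries, had 9 of 10 tested members higher in Lo, 5 of them at an unadjusted p under 0.05 (48.9% and 3.25% of all genes), with a median log2 fold change of -0.54. With the share of Yam1 and AY036118, a ribosomal RNA locus, as a covariate the median was -0.17. With the Chr2 dosage as a covariate it was -0.63, and of the 5 genes only Hist1h1b then had an unadjusted p above 0.05. All 5 lie on Chr13, and their sequences resemble those of other histone genes, so the assignment of reads among copies is uncertain. Hist1h1e, a linker histone, ranged from 3.17 to 17.3 CPM in Lo with a median of 10.1, and from 5.51 to 9.71 CPM in Hi with a median of 6.47. The Hi tumors lay inside the Lo range (log2 fold change -0.64, 95% interval -1.04 to -0.23, edgeR adjusted p = 0.684). Lo 1 had both the lowest Hist1h1e and the lowest share of Yam1 and AY036118 (6.29%) of all tumors, and Lo 6 the highest of each (27.7%), and the part of that share in the histone levels was not tested. The summed CPM of the list, which is dominated by Hist1h1c, was 59.3 to 132.6 in Lo and 64.4 to 134.6 in Hi.

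Genes of the unfolded protein and heat shock response had a higher mean in Lo for 11 of 11 members, with a median log2 fold change of -0.18. An unadjusted p under 0.05 was reached by 3 members (48.9% of all genes lay higher in Lo and 3.25% passed). With the Chr2 dosage as a covariate all 3 had an unadjusted p above 0.05. Hspa5, the main chaperone of the endoplasmic reticulum, which lies on Chr2, had 1794 ± 285 CPM in Lo and 1531 ± 165 CPM in Hi (log2 fold change -0.23, edgeR adjusted p = 0.789). Hspa1a and Hspa1b, near-identical heat shock genes between which reads can be split, had log2 fold changes of -0.31 and -0.25. With the covariate the log2 fold changes were -0.19 for Hspa5, -0.16 for Hspa1a and -0.10 for Hspa1b. Hypoxia and glycolysis genes had a higher mean in Lo for 12 of 14 members and p53 targets for 9 of 10, with medians of -0.13 and -0.09, and 0 and 1 members passed the unadjusted threshold. With the Chr2 dosage as a covariate the medians were 0.02 and 0.12, and that of the p53 targets was 0.01 without Lo 8. The 1 member was Bbc3, a cell death gene activated by p53 (log2 fold change -0.36).

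**Figure D4:**
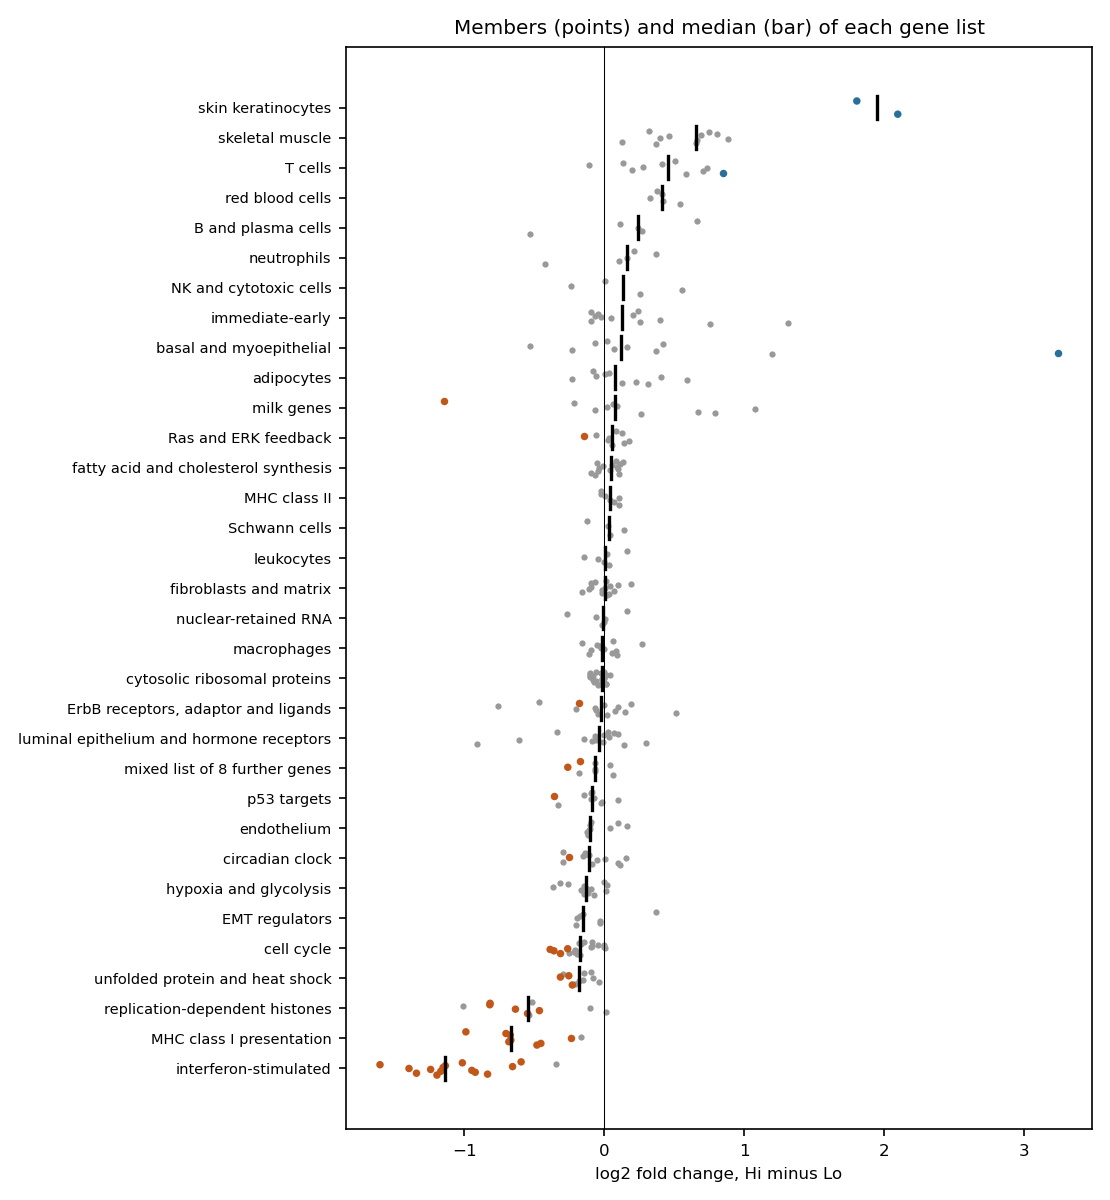
Log2 fold change (Hi minus Lo) of the tested members (points) and their median (black bar) for each gene list, ordered by the median. Orange and blue points have an unadjusted p under 0.05 with a higher level in Lo and in Hi, and gray points do not. The interferon-stimulated list lies lowest, with a median of -1.14, and the leukocyte, fibroblast and MHC class II lists lie near 0.

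Differences in the neu pathway were small. Erbb2, the mouse gene of the receptor, to which reads of the rat transgene may also align, ranged from 182.4 to 257.3 CPM in Lo with a median of 240.1, and from 198.1 to 286.1 CPM in Hi with a median of 224.9. The groups overlapped throughout (log2 fold change 0.02, 95% interval -0.13 to 0.17). Its partner Erbb3 had 458.6 ± 40.0 CPM in Lo and 444.2 ± 35.3 CPM in Hi (log2 fold change -0.05). Of the 14 tested ErbB receptors, adaptor and ligands, only Tgfa, a ligand of the EGF receptor, had an unadjusted p under 0.05, at 80.0 ± 10.5 CPM in Lo and 70.5 ± 8.79 CPM in Hi. The ligand Areg had 5.04 ± 4.74 and 2.98 ± 1.39 CPM (edgeR unadjusted p = 0.0578). Of 9 feedback genes of Ras and ERK only Spred1, an inhibitor of Ras signaling on Chr2, passed the unadjusted threshold, with a log2 fold change of -0.14.

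Stromal lists lay near 0. The median log2 fold change was 0.0051 for 15 fibroblast and matrix genes, -0.10 for 10 endothelial genes and 0.08 for 10 adipocyte genes, and none of these genes had an unadjusted p under 0.05. Macrophage genes had a median of -0.01 (0 of 13), neutrophil genes 0.16 (0 of 5 tested), B and plasma cell genes 0.24 (0 of 5 tested) and NK and cytotoxic cell genes 0.13 (0 of 4 tested). Milk genes had a median of 0.08, and of 10 members only Olah, a thioesterase that releases medium-chain fatty acids, passed the unadjusted threshold (log2 fold change -1.14, on Chr2, at most 4.50 CPM). The milk median was -0.39 in limma with quality weights, -0.15 without Hi 8 and 0.41 without Lo 7. Medians were -0.02 for 25 cytosolic ribosomal proteins, 0.05 for 14 genes of fatty acid and cholesterol synthesis, 0.13 for 12 immediate-early genes, -0.15 for 7 EMT regulators, -0.01 for 6 nuclear-retained RNAs and 0.03 for 4 Schwann cell genes, with 0 genes past the unadjusted threshold in each. Of 13 circadian clock genes only Cry2, a repressor of the clock on Chr2, passed it (log2 fold change -0.25).

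In a mixed list of 8 further genes, of which the text of the paper names Socs6, Etv3 and Zfp217, none passed the adjusted threshold. Daxx, a histone chaperone and regulator of cell death, ranged from 27.8 to 37.7 CPM in Lo with a median of 30.4, and from 21.2 to 30.5 CPM in Hi with a median of 26.9. The groups overlapped (log2 fold change -0.26, standard error 0.0716, edgeR adjusted p = 0.654). Zfp217, a zinc finger gene of Chr2, had 51.2 ± 6.25 CPM in Lo and 45.5 ± 4.18 CPM in Hi (log2 fold change -0.17). The other 6, Socs6, E2f1, E2f6, Pak4, Stk24 and Etv3, had unadjusted p-values above 0.05 in edgeR.

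Among well expressed genes with a higher level in Lo, Serpina3g, a serine protease inhibitor induced in immune activation (Chr12 from 104236245 to 104241939), had the smallest p. It ranged from 1.74 to 8.11 CPM in Lo with a median of 4.38, and from 0.833 to 2.64 CPM in Hi with a median of 1.88. All of Lo 1, Lo 2, Lo 4, Lo 6 and Lo 8 were above 4 CPM, and 6 Lo tumors in all lay above the Hi range. Its log2 fold change was -1.21 (95% interval -1.72 to -0.69, edgeR unadjusted p = 7.65e-05, adjusted p = 0.500). Over the alternatives its lowest adjusted p was 0.0219, in DESeq2, and every other was above 0.05. Without 1 tumor at a time edgeR gave 0.125 or more. It belongs to a cluster of near-identical serpin genes, so its counts are uncertain.

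A further pair of these genes belongs with the interferon-stimulated genes by function. Oas3, which makes the messenger that activates RNase L, ranged from 1.99 to 20.1 CPM in Lo with a median of 4.94, and from 0.992 to 4.56 CPM in Hi with a median of 3.04. Its highest tumors were Lo 2, Lo 1, Lo 4 and Lo 8, and 5 Lo tumors lay above the Hi range (log2 fold change -1.63, edgeR adjusted p = 0.500). Apol9b, an apolipoprotein L gene, ranged from 3.65 to 44.9 CPM in Lo with a median of 11.3, and from 2.56 to 11.4 CPM in Hi, with the same 4 tumors highest (log2 fold change -1.62, adjusted p = 0.500). With the Chr2 dosage as a covariate the log2 fold change was -0.88 for Oas3 (edgeR unadjusted p = 0.031) and -0.77 for Apol9b (edgeR unadjusted p = 0.038). Both genes were picked here for a small p.

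Ada, Cdc25b and Gm4631 lie on Chr2. Ada, adenosine deaminase (Chr2 from 163726584 to 163750239), ranged from 7.78 to 17.4 CPM in Lo with a median of 9.74, and from 4.75 to 9.17 CPM in Hi with a median of 7.25. Lo 2 was highest, followed by Lo 4 and Lo 1, and 6 Lo tumors lay above the Hi range (log2 fold change -0.63, standard error 0.142, edgeR adjusted p = 0.500). Cdc25b, a phosphatase that starts mitosis (Chr2 from 131186949 to 131198497), ranged from 21.5 to 35.6 CPM in Lo with a median of 28.9, and from 15.5 to 25.8 CPM in Hi with a median of 20.5. Lo 11 and Lo 8 were highest (log2 fold change -0.45, standard error 0.103, adjusted p = 0.500). With the Chr2 dosage as a covariate the log2 fold changes were -0.40 for Ada, -0.32 for Cdc25b and -0.18 for Gm4631.

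C1qtnf1, a secreted relative of complement C1q (Chr11 from 118428203 to 118449963), ranged from 103.4 to 160.1 CPM in Lo with a median of 124.3, and from 75.1 to 117.1 CPM in Hi with a median of 98.4. Its edgeR adjusted p was 0.500 at a log2 fold change of -0.38, and 6 Lo tumors lay above the Hi range. Gm11747 (118444200 to 118454995) overlaps it, and its log2 fold change of -0.35 may come from the same reads, since the strand setting of the counting is not given in the sources used here. Sphk1, sphingosine kinase, ranged from 22.2 to 38.1 CPM in Lo and from 14.6 to 29.4 CPM in Hi (log2 fold change -0.46). Grrp1, a glycine and arginine rich gene, ranged from 3.47 to 9.76 CPM in Lo and from 2.85 to 5.601 CPM in Hi, with 7 Lo tumors above the Hi range (log2 fold change -0.71).

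Among well expressed genes with a higher level in Hi, Abcg2, a drug efflux transporter also active in milk secretion (Chr6 from 58584523 to 58692869), had the smallest p. It ranged from 119.7 to 208.1 CPM in Lo with a median of 138.2, and from 149.6 to 240.2 CPM in Hi with a median of 207.3. Lo 3 and Lo 6 lay within the Hi range and the other 7 Lo tumors below it (log2 fold change 0.46, 95% interval 0.25 to 0.68, edgeR adjusted p = 0.500). Txnrd3, a thioredoxin reductase, ranged from 7.33 to 9.13 CPM in Lo with a median of 8.33, and from 8.45 to 12.8 CPM in Hi with a median of 10.7, with 9 Hi tumors above the Lo range (log2 fold change 0.33, adjusted p = 0.500). These are differences of levels that overlapped between the groups.

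Enpp1, an ectoenzyme that makes pyrophosphate and also degrades the cyclic dinucleotide cGAMP, ranged from 122.3 to 210.3 CPM in Lo with a median of 163.1, and from 183.8 to 256.1 CPM in Hi with a median of 215.4. It was lowest in Lo 8, Lo 2 and Lo 11, and 6 Lo tumors lay below the Hi range (log2 fold change 0.34, 95% interval 0.16 to 0.52, edgeR adjusted p = 0.559). Atp8a1, a phospholipid flippase, had 125.0 ± 16.8 CPM in Lo and 168.2 ± 36.6 CPM in Hi (log2 fold change 0.43). Extl2, a glycosyltransferase, Plekhh2, a cytoskeletal adaptor, and Mcoln2, an endolysosomal channel, had log2 fold changes of 0.23, 0.26 and 0.71, and Gm8292 of 0.47, with edgeR adjusted p-values of 0.586 to 0.684.

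The largest fold changes were set by 1 or a few tumors. B630019K06Rik (ChrX from 8892382 to 8894964) was at 620.0 CPM in Lo 3 and between 4.94 and 8.64 CPM in the other 19 tumors. Its log2 fold change of -3.43 became 0.10 without Lo 3. Btbd17 (Chr11 from 114791217 to 114795945) was at 174.0 CPM in Hi 8 and between 0.485 and 3.97 CPM elsewhere, and its log2 fold change of 4.04 became 0.47 without Hi 8. Klk6, a secreted serine protease, was at 70.3 CPM in Hi 8, at 6.18 CPM in Lo 7 and at most 1.65 CPM elsewhere. Its log2 fold change of 2.59 became -0.82 without Hi 8.

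Gm11534 had 19.7 CPM in Hi 7, 6.12 CPM in Hi 3 and at most 3.97 CPM elsewhere (log2 fold change 2.23, 1.43 without Hi 7). In 2310014F06Rik (log2 fold change -2.14) 3 Lo tumors lay above the Hi range. It was at 109.7 CPM in Lo 3 and at 53.01, 47.8 and 41.1 CPM in Lo 8, Lo 1 and Lo 7, while Hi 3 had 43.3 and Hi 9 21.3 CPM and other tumors had 11.1 CPM or less (edgeR unadjusted p = 0.0758).

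Krt14, the keratin of basal epithelium and skin, was at 26.2 CPM in Hi 3 and 7.76 CPM in Hi 8, and at most 1.44 CPM in the other 18 tumors (log2 fold change 3.25, edgeR adjusted p = 0.708). Hi 3 and Hi 8 were also the tumors with skin keratinocyte genes. The summed CPM of these 6 genes, of which only Krt10 and Lor passed the filter on low counts, was 383 in Hi 3, 32.2 in Hi 8 and between 5.03 and 8.83 in the others. Krt10, the keratin of differentiated skin, reached 157.2 CPM, and without Hi 3 the median log2 fold change of the list was 0.36 in place of 1.95. The log2 fold change of Krt14 was as low as 0.66 under the alternatives. The part of skin in the level of Krt14 was not tested. Of the basal and myoepithelial list, Krt14 was the only one of 10 members with an unadjusted p under 0.05.

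Skeletal muscle genes, which mark muscle in the piece, had a higher mean in Hi for 11 of 11 members (48.9% of all genes lay higher in Lo). Their median log2 fold change was 0.65, and 0 of them had an unadjusted p under 0.05 (2.24% of all genes, higher in Hi). Their summed CPM was 1423 in Hi 6, 821 in Lo 4 and 494 in Hi 1, and it was lower in Hi by its median (13.3) than in Lo (85.1). The sign of the list depended on Hi 6, without which the median log2 fold change was -0.61, and its size also on Lo 4, without which it was 1.80. In limma with quality weights it was -0.24. Red blood cell genes had a median of 0.41 (0 of 5 members), with summed CPM of 36.9 to 193.9 in Lo and 56.2 to 284.3 in Hi.

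**Figure D5:**
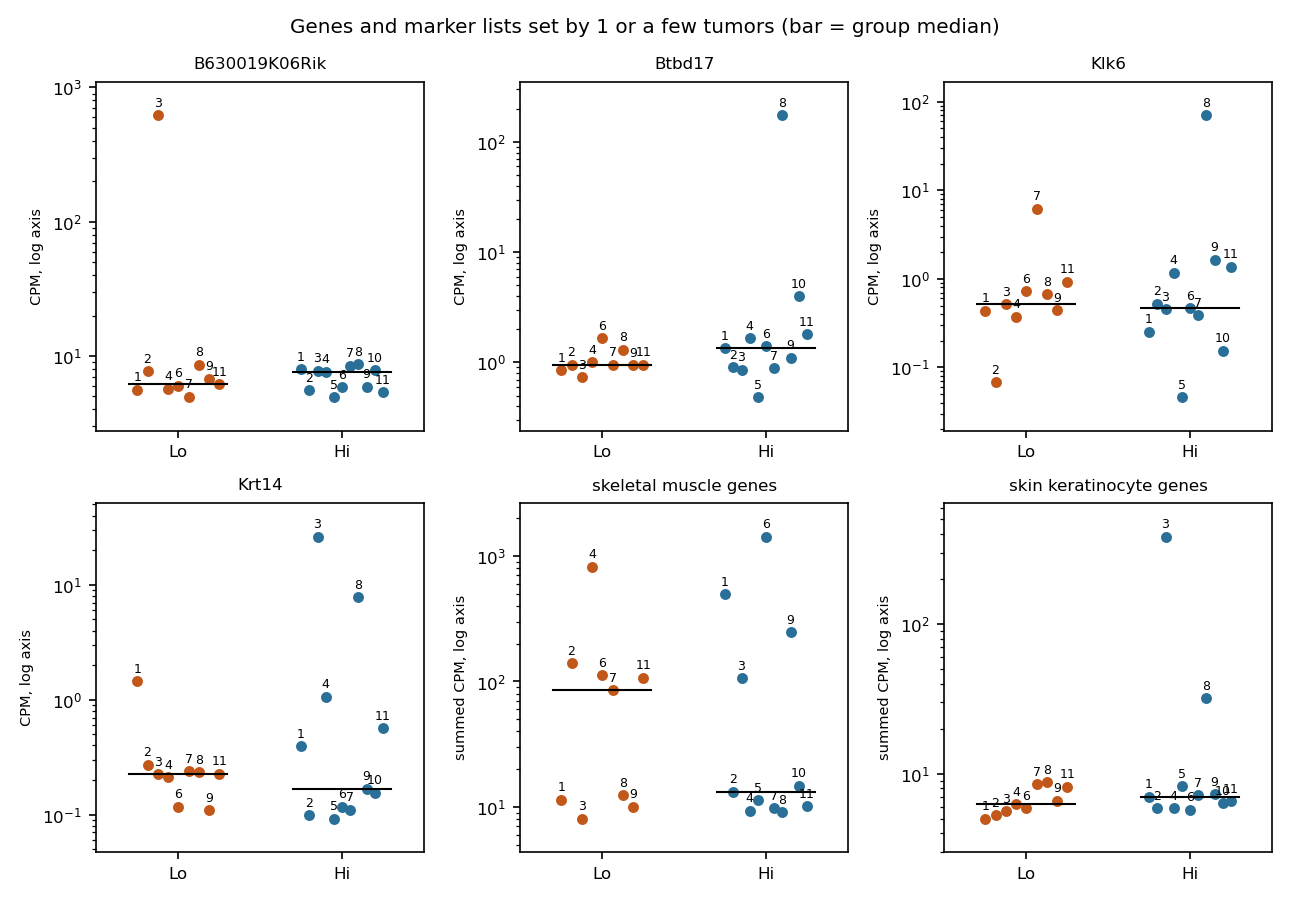
CPM of B630019K06Rik, Btbd17, Klk6 and Krt14 and summed CPM of the skeletal muscle and skin keratinocyte lists in each tumor, on log axes, with the group median as a bar. Lo 3 alone sets the first panel, Hi 8 those of Btbd17 and Klk6, and Hi 3 and Hi 8 stand out in Krt14 and in the keratinocyte genes, while group medians lie close together except for muscle.

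None of the 4 library measures passed its adjusted threshold. Without Yam1 and AY036118, a pair of overlapping Chr17 genes over a ribosomal RNA gene, total counts ranged from 30404533 to 45872178 in Lo and from 34049117 to 58498047 in Hi (exact permutation p = 0.114, adjusted p = 0.229). Genes with at least 1 count numbered 23818 to 25251 in Lo and 23555 to 25674 in Hi (exact permutation p = 0.369), and the share of the 10 top genes was 13.6% and 13.3% (p = 0.592, exact permutation). The share of Yam1 and AY036118 was higher in Lo by 4.71 percentage points (exact permutation p = 0.0387, adjusted p = 0.155 over the 4 measures). With this share as a covariate the interferon-stimulated median was -1.36. Lo 1, with high interferon-stimulated genes, had the lowest share of all (6.29%), and Lo 2 had 21.6%. Of the first 5 principal components of 1000 variable genes none passed the adjusted threshold. The fifth, with 5.92% of the variance, came closest (exact permutation p = 0.0111, adjusted p = 0.0554). Its genes of largest weight were Gm15662, Krt5 and Slc22a19. Krt14, Klk6 and Rsad2 had ranks 6, 9 and 12. Among the 20 genes of largest weight Rsad2 was the only member of the interferon-stimulated list.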

How the data were processed

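RNA from frozen tumor pieces was extracted with miRNeasy and made into TruSeq mRNA libraries, and paired-end reads were trimmed to 100 bases. The authors aligned them to mm10 (TopHat2 2.0.12) and counted reads per gene (featureCounts 1.4.4, both from the submitters' processing notes). They deposited raw counts, 1 column per tumor, with nothing pooled. The 37 rows of the mitochondrial chromosome hold 0 in every tumor, so that share was not tested.

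Here 2 rows (Yam1 and AY036118) were dropped first. edgeR 4.0.16 was used with filterByExpr and TMM factors, then its quasi-likelihood test and p-values adjusted by Benjamini-Hochberg, in R 4.3.3, with limma 3.58.1 and DESeq2 1.42.0 as alternatives. A quoted standard error is the log2 fold change divided by the root of F. Single values per tumor were compared with two-sided exact permutation tests over 167960 splits. Python 3.11.15, numpy 2.4.6, pandas 2.3.3, scipy 1.17.1 and matplotlib 3.10.9 served for the rest. The scripts were tested on simulated data. CPM were computed here from the deposited counts. Dosage used genes at a mean of 5 CPM or more. A count of 0 allows up to 3 counts. Reads carry no molecular identifiers, so counting precision is not biological error. Replicates are tumors of separate mice.

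Named genes were, per direction, the 10 smallest p and 5 largest fold changes where the mean log2 CPM was 1 or more, then Erbb2, and members of the 34 lists that were 3 highest or passed an unadjusted p of 0.05, from which those described were taken. Groups, lists and rules were chosen with earlier results of these data known. Alternatives changed 1 choice at a time, except limma, where voom with quality weights changed the test and also weighted the tumors. Some genes that the rule names are not reported here.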

Additional observations from a re-analysis of the deposited data

Results flagged for a closer look

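Among the 9 Lo tumors, 94 values (library measures, dosages of Chr2 and Chr18, components, named genes and list sums) were examined for a single tumor far from the others, by the gap to the nearest tumor relative to the range. This picked out 8 values. Chance picks about 1 in 20, or 4.7 of 94, where values are independent and normally distributed. That was not tested for the CPM levels and sums, and many of them follow the same tumors, so the rate is a rough guide. Of the 8, 5 are genes named for their large fold changes, to which that rate does not apply. The 11 Hi tumors were too many for this rule.

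B630019K06Rik was at 620.0 CPM in Lo 3, with the next Lo tumor at 8.62 CPM, and 2310014F06Rik was at 109.7 CPM in the same tumor, with the next at 53.01 CPM. Krt14 was at 1.44 CPM in Lo 1 (next 0.273 CPM), as was Gm11534 at 3.94 CPM (next 1.12 CPM). Klk6 was at 6.18 CPM in Lo 7 (next 0.930 CPM). The summed CPM of NK and cytotoxic cell genes was 5.42 in Lo 2 (next 3.105). Lo 4 was far from the others in the summed CPM of skeletal muscle genes, at 821 (next 140.5), and of fibroblast and matrix genes, at 4723 (next 3030).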

How the results depend on the processing

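The count of genes past an adjusted p of 0.05 was 0 under every alternative except no filter on low counts (1 gene) and DESeq2 (1 gene, Serpina3g, log2 fold change -1.20, adjusted p = 0.0219), where the cause was not tested. Genes with an unadjusted p under 0.05 numbered 1092 higher in Hi and 984 higher in Lo without the filter, where more genes were tested, 693 higher in Hi with the share of Yam1 and AY036118 as a covariate, and 246 and 217 with the Chr2 dosage as a covariate, added after seeing the data. Leaving out 1 tumor at a time gave 281 to 515 genes higher in Hi, the lowest without Lo 2, and the adjusted count stayed at 0. Without 1 tumor, Klk6 had log2 fold changes from -0.82 (without Hi 8) to 3.72 and B630019K06Rik from -3.60 to 0.10 (without Lo 3), with 0.10 in DESeq2. Erbb2, near 0, had a log2 fold change of -0.00046 in limma and ran from -0.022 to 0.044 without 1 tumor, below 0 without Lo 2, Lo 3, Lo 4, Hi 4 or Hi 10. The skin keratinocyte median was 0.57 in limma, 0.34 in DESeq2 and between 0.36 and 2.06 without 1 tumor. The interferon-stimulated median was -0.67 in limma, where 6 of 15 genes had an unadjusted p under 0.05, and -1.26 to -0.87 without 1 tumor. The share of Yam1 and AY036118 had differences of -6.225 to -3.55 percentage points without 1 tumor, with exact permutation p from 0.00257 to 0.0844 and over 0.05 in 11 of 20 cases, and on the log2 scale the difference was -0.36 (exact permutation p = 0.108). Of the other values, 1200 under alternatives and 1715 without 1 tumor were counted as unchanged. They stayed on their side of the threshold in their direction or moved by less than the spread between tumors. For counts of genes the rule was a set factor of change. For fold changes of genes the side of the threshold was almost fixed, since no gene passed it in the main fit. Btbd17 was counted as unchanged, with a log2 fold change of 4.04 in the main fit and 0.47 without Hi 8.

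The closing numbers of the names recur in 9 pairs of Lo and Hi tumors, from different mice. Deviations from the group means had r from -0.42 to 0.21 within pairs, over 0.1 in 3 of 9, and 1 tumor pair matched best. What the number stands for is not given, and whether paired tumors share a further factor was not tested. In the fit with a replicate block for this number, over these 18 tumors, 0 genes passed an adjusted p of 0.05. At an unadjusted p under 0.05 it gave 374 genes higher in Hi and 496 higher in Lo. The same tumors without the block gave 395 and 551. The skin keratinocyte median was 0.63 with the block, and Erbb2 had -0.027 (-0.031 without the block). The interferon-stimulated median was -0.86 with 10 of 15 genes at an unadjusted p under 0.05, and -1.12 with 14 of 15 without the block. The MHC class I median was -0.54 with 4 of 9, and -0.68 with 8 of 9 without the block. The share of Yam1 and AY036118 differed by -4.845 points (exact sign-flip test, p = 0.0273).

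With groups of 9 and 11 tumors, a fold change smaller than the reach of its 95% interval could not pass an unadjusted p of 0.05. The adjusted threshold asked for more. Serpina3g, with an interval of -1.72 to -0.69, had an adjusted p of 0.500 in edgeR. Members of a list are not independent.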
